A study of Homo sapiens with 4 samples.

Results

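The cathepsin family was examined in SNU638 cells, an established line of human gastric cancer, through the 10 genes CTSA, CTSB, CTSC, CTSD, CTSF, CTSH, CTSL, CTSO, CTSS and CTSZ, taken by symbol from the 46427 genes in the count table. These genes encode lysosomal proteases that have been described in dendritic cells as targets of YTHDF1, a protein that binds mRNAs carrying N6-methyladenosine. RNA-seq had been run on 2 biological replicates with the control vector and on 2 with the YTHDF1 vector. Every library came from cells kept without serum for 24 h and then given IFN-γ at 10 ng/ml, so no untreated cells entered the comparison. The labels give 8 h of IFN-γ whereas the legends of the study give 24 h, and the promoter of the YTHDF1 vector is not given in the sources used here.

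Cathepsins are made as inactive precursors, sorted to the lysosome and activated there by acid and by other proteases, and cystatins and some serpins restrain those that escape. Most members are cysteine proteases, whereas CTSD is an aspartic protease and CTSA a serine carboxypeptidase. In antigen-presenting cells they cut antigens and the invariant chain that occupies class II molecules, and in tumor cells they are known for lysosomal turnover and for degrading matrix after secretion.

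Between the vectors, 0 of the 9 testable cathepsin genes were called at an adjusted p under 0.05, against 0% of the 17781 genes tested. That fit did not call YTHDF1 itself, so a lack of calls does not show that the members were unchanged. All 9 members had CPM ranges that overlapped between control and YTHDF1 libraries, and 11.5% of all genes had groups that did not overlap. For all members but CTSA this overlap was forced, since both libraries numbered 2 lay on the same side of both libraries numbered 1. Between the replicate numbers 7 of the 9 differed, where 51.8% of all genes did, with CTSS, CTSO, CTSC and CTSD higher in the libraries numbered 2 and CTSL, CTSB and CTSZ lower. CTSF, a cysteine protease, had 0 counts in all 4 libraries, which allows up to 3 counts per library, or 0.0529 CPM at most. CPM are counts scaled by library size to a common total, after weighting of the libraries by trimmed mean of M values (TMM).

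Total counts ran from 57398137 to 60864942 per library. YTHDF1 mRNA stood at 82.2 and 80.3 CPM in control replicates 1 and 2, and at 16495 and 2628 CPM in YTHDF1 replicates 1 and 2, so the vector was expressed in both but to unequal levels. All 5 epithelial markers, EPCAM, CDH1, KRT8, KRT18 and KRT19, were detected, with summed levels of 3861 to 6719 CPM per library. The 8 macrophage and dendritic cell markers summed to 6.28 to 6.84 CPM, mostly from CD68, and TYROBP was at 0 counts in all libraries. The 6 fibroblast markers summed to 11.4 and 11.8 CPM in the libraries numbered 1 and to 7.25 and 6.58 CPM in those numbered 2, with COL1A2 at 0 counts in all libraries.

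YTHDF proteins bind methylated adenosines that lie mostly near stop codons, in a consensus of which GGACT is a frequent form. The letters GGACT were therefore located in a GENCODE transcript of each member, and 7 of the 10 members held them within 300 bases of the stop codon, at distances of 4 to 235 bases. Over 18588 genes, 88.3% of transcripts held GGACT somewhere. The share of all transcripts holding it this near the stop codon was not computed, so the 7 of 10 cannot be called unusual. The windows below cover 21 bases on GRCh38 around the occurrence nearest to the stop codon, with GGACT in capitals, for 6 of those 7 members. CTSB held the letters 103 bases past its stop codon.

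CTSL, 3′ UTR, chr9:87731122-87731142, plus strand: atgaggaaGGACTtgactggg

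CTSA, 3′ UTR, chr20:45898550-45898570, plus strand: tgccgccaGGACTgccccctt

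CTSF, coding part, chr11:66563927-66563947, minus strand: gcggtggtGGACTgaagaggg

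CTSZ, coding part, chr20:58996670-58996690, minus strand: cagtgatgGGACTgagtactg

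CTSD, coding part, chr11:1753806-1753826, minus strand: tccccagaGGACTacacgctc

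CTSH, coding part, chr15:78925357-78925377, minus strand: gtgactcaGGACTtcatgatg

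CTSZ held 3.34 GGACT per kb of transcript, the highest density of the family, and CTSO held 0.339 per kb, the lowest, whereas the median over 18588 genes was 0.949. In CTSC, CTSS and CTSO the nearest occurrence lay 685, 637 and 895 bases before the stop codon. A match to these letters is a description of the sequence, and no methylation or binding data were analysed here.

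Upstream sequence in RefSeq for GRCh38.p14 was matched for 7 of the 10 members, CTSA, CTSC, CTSD, CTSF, CTSH, CTSL and CTSZ. The letters CACGTG, the core bound by TFEB and its relatives at lysosomal genes, were found within 250 bases before the start in CTSA, CTSD and CTSF, that is in 3 of the 7, and in 6.34% of 35116 promoters. The word reads the same on both strands, so each occurrence was counted once. The 130 bases directly before the start are shown for these 3 genes with CACGTG in capitals.

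CTSA, chr20:45891205-45891334, plus strand: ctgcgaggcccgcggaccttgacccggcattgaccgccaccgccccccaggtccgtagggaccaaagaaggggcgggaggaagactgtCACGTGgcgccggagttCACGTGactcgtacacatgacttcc

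CTSD, chr11:1763928-1764057, minus strand: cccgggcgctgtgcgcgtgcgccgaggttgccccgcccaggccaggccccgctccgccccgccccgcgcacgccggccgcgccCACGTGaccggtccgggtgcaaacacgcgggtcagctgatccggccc

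CTSF, chr11:66568607-66568736, minus strand: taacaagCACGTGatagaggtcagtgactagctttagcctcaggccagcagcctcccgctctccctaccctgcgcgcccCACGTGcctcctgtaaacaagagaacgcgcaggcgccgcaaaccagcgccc

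The occurrence nearest to the start lay 19 bases before it in CTSA, 41 bases in CTSD and 45 bases in CTSF. CTSF thus carries the word at a distance close to that of CTSD although it had no counts, whereas CTSA and CTSD were both well expressed. The longer word TCACGTGA, which contains CACGTG, was found in CTSA alone, against 0.854% of all promoters. GGGCGG, the word bound by SP factors, was found on either strand in 6 of the 7 windows, all but CTSF, against 42.6% of all promoters. TATAAA was found in 0 of the 7, against 10.7%. The gamma-activated site TTCNNNGAA and the interferon-stimulated response element, to which STAT and IRF factors bind, were likewise searched on both strands and found in 0 of the 7, against 6.57% and 3.02% of all promoters. The bases G and C made up 56.4% of the CTSF window, the lowest, and 81.2% of the CTSZ window, the highest. The median over all promoters was 58.0%, and the part of base composition in these shares was not tested.

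Levels were first compared between genes per length, as CPM per kb of the GENCODE transcript with the longest coding part. CTSC, which removes dipeptides and activates granule serine proteases, averaged 104 CPM per kb over the 4 libraries, followed by CTSD at 78.6. The ranges of these 2 genes over the libraries overlapped, as did those of the next 3 genes in order, CTSZ at 46.8, CTSB at 44.8 and CTSA at 41.5 CPM per kb. CTSL at 17.6, CTSO at 9.43, CTSH at 4.82 and CTSS at 0.991 CPM per kb each stood apart from their neighbors. The level of CTSC depends on the isoform, since its mean is 268 CPM per kb with the shortest matched transcript and 32.7 with the longest. With the shortest matched transcript CTSB stands at 86.5 and CTSS at 2.86 CPM per kb, so the order of CTSC and CTSB among the upper genes is not fixed by these data.

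The summed level of the family was 322 and 337 CPM per kb in control and YTHDF1 replicates 1, and 368 and 367 in replicates 2. Its make-up differed between the replicate numbers more than between the vectors, since CTSC took 22.8% and 23.3% of the sum in replicates 1 and 36.4% and 35.6% in replicates 2. CTSB took 16.2% and 16.0% in replicates 1 against 9.97% and 10.0% in replicates 2.

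**Figure D1:**
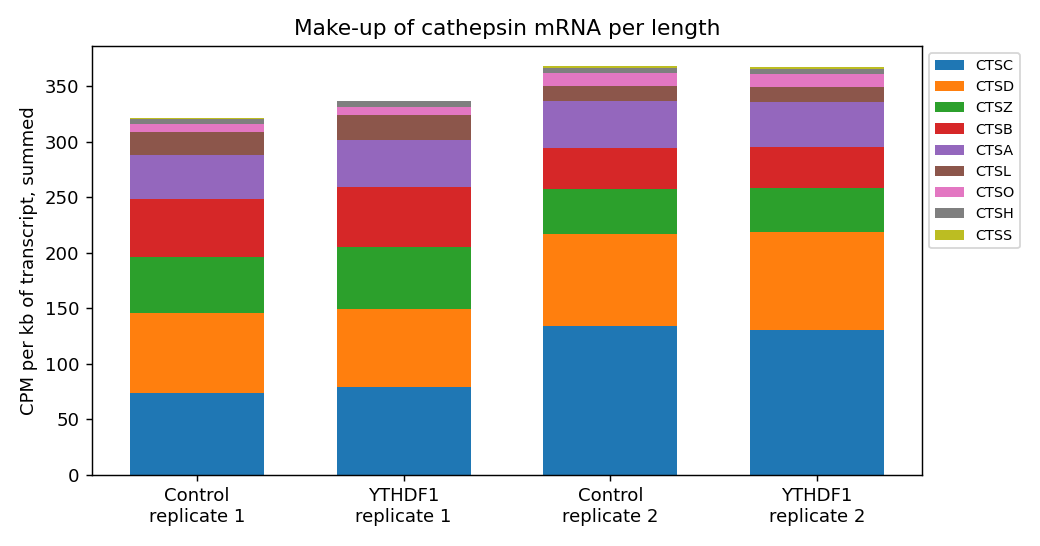
Stacked bars of cathepsin mRNA level per library in CPM per kb of transcript (vertical axis), with 1 color per gene and 1 bar per library, without error bars since each bar is 1 library. The CTSC block takes 22.8% and 23.3% of the bars of replicates 1 and 36.4% and 35.6% of those of replicates 2.

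The first comparison asked whether the YTHDF1 vector altered cathepsin mRNA in the presence of IFN-γ. Among the endopeptidases, CTSD, the main aspartic protease of the lysosome, had 154 and 176 CPM in control replicates 1 and 2 and 150 and 187 CPM in YTHDF1 replicates 1 and 2. CTSL, an endopeptidase that also trims the invariant chain in some epithelia, had 29.6 and 19.8 CPM in control and 32.2 and 19.2 CPM in YTHDF1 libraries. CTSS, the protease that trims the invariant chain in dendritic cells and B cells, had 3.11 and 5.45 CPM in control and 2.16 and 5.57 CPM in YTHDF1 libraries, from 127 to 336 counts. In each of these 3 genes the YTHDF1 libraries held both the highest and the lowest value, so the groups overlapped.

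CTSB, which acts as an endopeptidase and as a dipeptidyl carboxypeptidase, had 202 and 142 CPM in control replicates 1 and 2 and 209 and 142 CPM in YTHDF1 replicates 1 and 2. Among the exopeptidases, CTSC had 141 and 257 CPM in control and 151 and 251 CPM in YTHDF1 libraries. CTSZ, a carboxypeptidase, had 75.6 and 61.1 CPM in control and 83.8 and 59.2 CPM in YTHDF1 libraries. These genes differed by replicate number within both vectors, and their groups overlapped.

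CTSH, an aminopeptidase, had 11.3 and 9.71 CPM in control and 11.4 and 9.86 CPM in YTHDF1 libraries. CTSA, which besides its own activity protects beta-galactosidase and neuraminidase in the lysosome, had 86.7 and 90.5 CPM in control and 91.8 and 87.3 CPM in YTHDF1 libraries. CTSO, a cysteine protease of broad expression, had 19.7 and 35.2 CPM in control and 20.7 and 35.7 CPM in YTHDF1 libraries. CTSA was the steadiest of the 9 across the 4 libraries. Again no gene separated the vectors, and for CTSH and CTSO the gap between the replicate numbers forced that overlap. The CTSA locus overlaps PLTP, which had 204 to 420 counts against 5135 to 5408 for CTSA, and since the strand setting of the counting is not given, reads of the overlap cannot be assigned. Of the 6 CTSL pseudogenes in the table, 6 had 0 counts in every library.

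**Figure D2:**
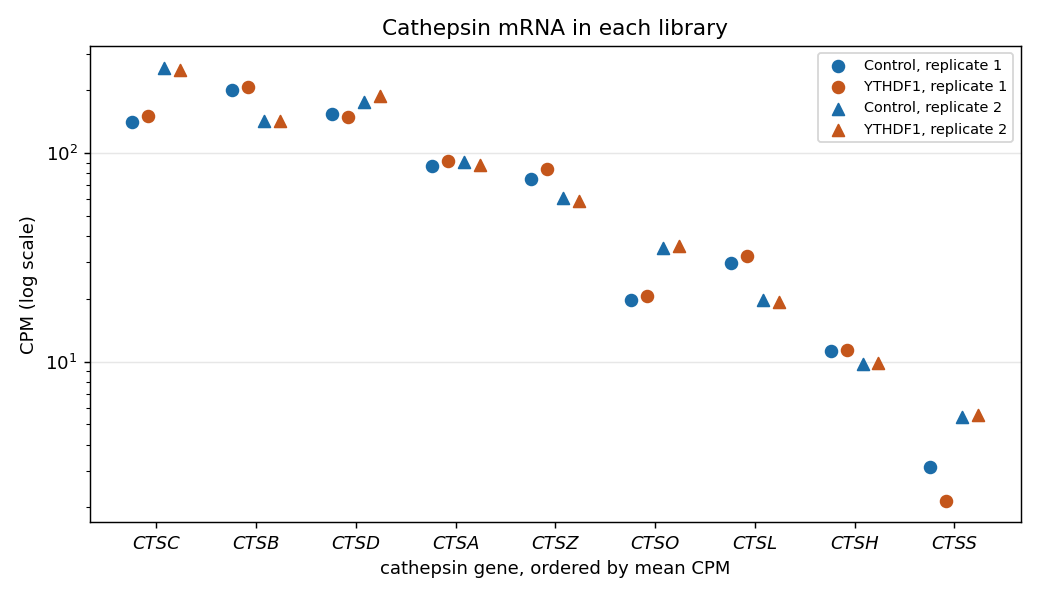
CPM on a log axis of the 9 detected cathepsin genes in each of the 4 libraries, with color for the vector and marker shape for the replicate number, and 1 point per library. Points of the same shape lie close together, as for CTSC at 141 and 151 CPM in replicates 1 and 257 and 251 CPM in replicates 2.

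By edgeR's quasi-likelihood test, 0 of 9 members had an adjusted p under 0.05. The adjusted p was 1.00 for each member, and 0 members had an unadjusted p under 0.05, with 0 by DESeq2's Wald test as well. At the threshold of the study, which asks for 0.5 or more in log2 difference and p under 0.05, here without adjustment, 0 of 9 members passed, and 0.101% of all genes did. None of the 9 separated the groups, and 11.5% of all genes had groups that did not overlap. A gene whose libraries split by replicate number cannot separate the vectors, as each number holds 1 library of each vector. All members but CTSA split in that way, so their overlap does not bear on an effect of the vector. The design is small, since an exact permutation test of 2 against 2 libraries cannot give a two-sided p below 0.333.

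The log2 differences of the members, YTHDF1 minus control, ran from −0.15 ± 0.63 (SE, n = 2 per group) for CTSS to 0.07 ± 0.23 for CTSZ. Of the 9 differences 8 were above 0, with a median of 0.03, and the median size was 0.03 in the members and 0.07 over all genes. These values depend on having both replicate numbers in both groups, since with a library left out 4 differences were above 0 without control replicate 1 or YTHDF1 replicate 1, and 5 without control replicate 2 or YTHDF1 replicate 2. The difference of CTSS then ran from −0.99 without YTHDF1 replicate 2 to 0.38 without YTHDF1 replicate 1. That of CTSC ran from −0.40 without YTHDF1 replicate 2 to 0.52 without control replicate 2, and that of CTSO from −0.42 to 0.52 under the same settings. The 95% interval was narrowest for CTSA, from −0.22 to 0.25, and widest for CTSS, from −1.96 to 1.67. For CTSC it ran from −1.22 to 1.25 and for CTSB from −0.80 to 0.86, so this fit leaves any difference inside these intervals possible. The intervals are not limits of detection, since in simulated counts this fit recovered only 39 of 200 genes changed 4-fold. The deposited counts measure mRNA, so neither translation nor protease activity was read.

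With the replicate number as a term in the model, the intervals of the members narrowed and 0 of 9 were called. The difference of CTSC was then 0.03 with an interval from −0.08 to 0.14, that of CTSB 0.03 with an interval from −0.07 to 0.13, and that of CTSD 0.03 with an interval from −0.08 to 0.13. CTSS kept the widest interval, from −0.64 to 0.18 around −0.23.

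Within replicate 1, where YTHDF1 mRNA was at 16495 CPM, CTSS differed by −0.53 on the log2 scale between YTHDF1 and control, with a counting interval from −0.87 to −0.20. Within replicate 2, at 2628 CPM of YTHDF1, the difference of CTSS was 0.03 with a counting interval from −0.20 to 0.26. These intervals cover counting error only, and each rests on 1 library per vector. Those of CTSA, CTSB, CTSC, CTSL and CTSZ within replicate 1 and of CTSC and CTSD within replicate 2 also left out 0. For CTSC they had opposite signs, from 0.06 to 0.15 in replicate 1 and from −0.068 to −0.002 in replicate 2. Among the other members, the within-replicate differences ran from −0.05 to 0.15, and the part of the unequal YTHDF1 levels in them was not tested.

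The second comparison set the libraries numbered 2 against those numbered 1, with the vector as a term. Values were to be described by vector and by replicate number, and this was chosen with earlier results of these data known. The labels do not say what a replicate number stands for, so culture, day and library preparation cannot be told apart here. Each number has 1 control and 1 YTHDF1 library, and same-numbered libraries deviated together. The p values below rest on the spread within a number, so they do not measure how much further replicates would vary. CTSS was the member with the widest gap, with 2.63 ± 0.675 CPM (SD, n = 2) in replicates 1 and 5.51 ± 0.0828 CPM in replicates 2, a log2 difference of 1.08 ± 0.18 (SE; adjusted p = 8.27e-04 by edgeR's quasi-likelihood test). CTSO rose from 20.2 ± 0.688 to 35.5 ± 0.34 CPM, a 1.76-fold difference with an adjusted p of 5.22e-06 by the same edgeR test. CTSC was 1.74-fold higher, at 146 ± 7.38 against 254 ± 4.37 CPM, and CTSD 1.2-fold higher, at 152 ± 2.75 against 182 ± 7.84 CPM. Their adjusted p values were 7.25e-07 and 0.00142 by edgeR. In all 4 genes both libraries numbered 2 stood above both libraries numbered 1.

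Lower levels in the libraries numbered 2 were found for 3 members. CTSL fell from 30.9 ± 1.8 to 19.5 ± 0.416 CPM, a log2 difference of −0.66 ± 0.07 (SE; adjusted p = 4.18e-05 by edgeR). CTSB stood at 205 ± 5.16 CPM in replicates 1 and 142 ± 0.184 CPM in replicates 2, 1.44-fold apart, with an adjusted p of 7.02e-06 by edgeR. CTSZ was 1.32-fold lower, at 79.7 ± 5.85 against 60.1 ± 1.36 CPM, with an adjusted p of 2.68e-04 by edgeR. CTSL, CTSB and CTSZ thus moved opposite to CTSS, CTSO and CTSC.

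CTSA and CTSH were not called. The interval of CTSA, from −0.12 to 0.11, was centered on −0.01 (adjusted p = 0.941 by edgeR). CTSH had 11.3 ± 0.0894 CPM in replicates 1 and 9.78 ± 0.099 CPM in replicates 2 without overlap, but its interval reached 0.00 and its adjusted p by edgeR was 0.0901.

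Against the background, 4 of 9 members were higher where 23.0% of all genes were, and 3 of 9 were lower where 28.7% were. Either way 7 of 9 were called against 51.8% of all genes, and 8 of 9 had groups that did not overlap against 77.1%, so differences between the replicate numbers were widespread in the transcriptome. The median size of the difference was 0.53 in the members and 0.31 over all genes. The replicate difference was seen within each vector, at 0.87 in control and 0.73 in YTHDF1 cells for CTSC, and at −0.58 and −0.74 for CTSL. For CTSS it was 0.81 in control and 1.36 in YTHDF1 cells. Of the 5 epithelial markers, KRT8, KRT18 and KRT19 were higher and EPCAM and CDH1 lower in the libraries numbered 2, at log2 differences from −0.58 for CDH1 to 1.01 for KRT18. Of the 6 fibroblast markers 3 were tested and COL1A1 was called, at −0.91, whereas DCN, which was not tested, had 0 counts in both libraries numbered 1 and 12 and 10 counts in those numbered 2. Of the 8 macrophage and dendritic cell markers 5 were tested and ITGAX was called, with 13 and 12 counts in the libraries numbered 1 and 0 in those numbered 2. ITGAX passed the filter on low counts only through the libraries numbered 1, so it could be called in that direction alone. The part of these shifts in the cathepsin values was not tested.

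**Figure D3:**
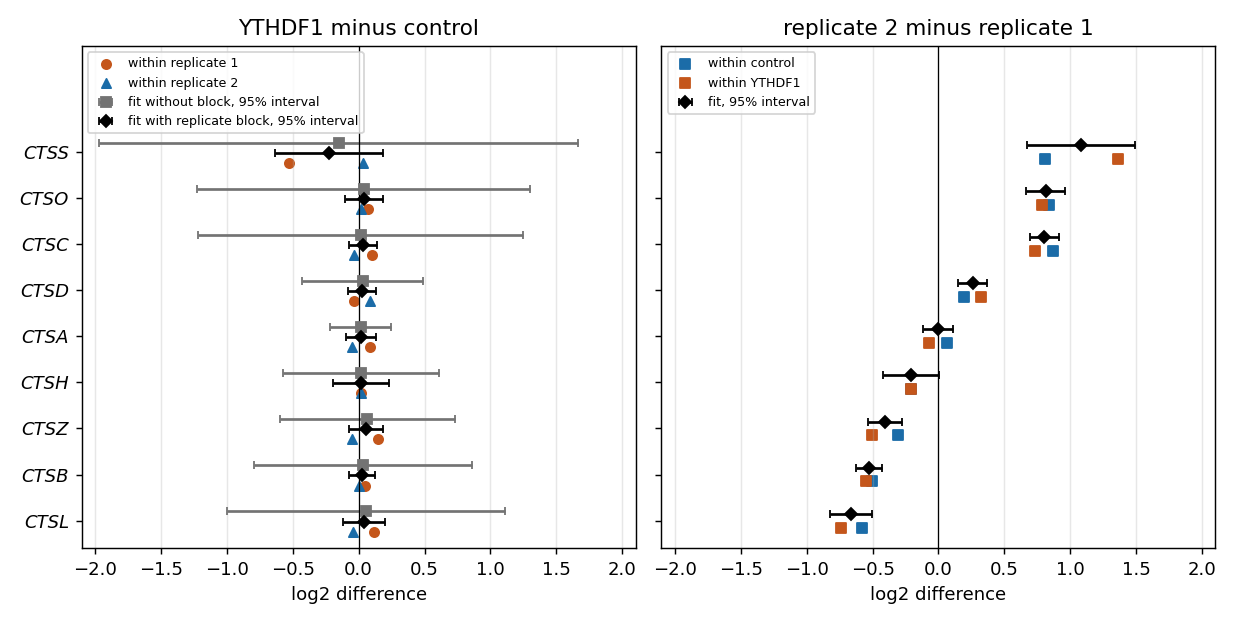
Log2 differences of the 9 detected cathepsin genes, YTHDF1 minus control on the left and replicate 2 minus replicate 1 on the right, with fitted values and 95% intervals as bars and the values within each replicate number or vector as points. On the left all intervals include 0, and on the right CTSS at 1.08 and CTSL at −0.66 mark the extremes while CTSA lies at −0.01.

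Members fell into sets by the shape of their profile over the 4 libraries, measured as the root mean square difference of centered log2 CPM, where 0 means the same shape. CTSC and CTSO were the closest pair at 0.023, followed by CTSB with CTSL and CTSB with CTSZ, both at 0.073. CTSL and CTSS were furthest apart at 0.90. Among 9991 genes with a mean of at least 10 CPM, the nearest profile was that of GINS4 for CTSC (0.013), MYEOV for CTSO (0.0059), HMGN2P5 for CTSD (0.0046) and GPX1P1 for CTSS (0.041). On the opposite side it was SKAP2 for CTSB (0.0085), SH3BP2 for CTSL (0.0042) and NUDT4 for CTSZ (0.0077). With 4 libraries and many genes that split by replicate number, such matches are a description only.

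Other cathepsin genes outside the 10 were mostly silent or low. CTSE and CTSG had 0 counts in all 4 libraries and CTSW had 11 counts in control replicate 1 and 0 elsewhere. CTSV, a close relative of CTSL, had 13.3 and 13.3 CPM in control and 14.4 and 14.8 CPM in YTHDF1 libraries. CTSK, the collagen-degrading protease of osteoclasts, had 1.82 and 1.69 CPM in control and 1.31 and 1.23 CPM in YTHDF1 libraries. Both separated the vectors, as 11.5% of all genes did, but neither passed edgeR's test, with unadjusted p of 0.435 for CTSV and 0.204 for CTSK, the lowest of its list. With the replicate number as a block, the unadjusted p by edgeR was 0.126 for CTSV and 0.0732 for CTSK. Within replicates 1 and 2 the log2 difference was −0.47 and −0.46 for CTSK, and 0.12 and 0.15 for CTSV, each from 1 library per vector. Neither gene was called between the replicate numbers.

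Among the natural inhibitors of cathepsins, 6 of 14 listed genes could be tested, and between replicate numbers 5 fell and 0 rose, where 28.7% of all genes fell and 23.0% rose. CST6 and CSTA passed the filter on low counts only through the libraries numbered 1, so they could be called in that direction alone, and of the other 4 genes 3 fell. CST6, a secreted cystatin that inhibits CTSL and CTSV, had 503 and 536 counts in replicates 1 of control and YTHDF1 and 6 and 11 counts in replicates 2. CSTA, an intracellular cystatin, had 191 and 165 counts in replicates 1 and 0 in replicates 2, at least 56.9-fold lower against a floor of 3 counts per library. SERPINB1, an inhibitor of neutrophil serine proteases, had a log2 difference of −0.85, and CST3 and SERPINB6 also fell, whereas CSTB at 69.8 against 72.7 CPM was not called. The median of the 6 tested genes was −0.56, and it is the same with CSTA at its bound. That median includes CST6 and CSTA, so it does not describe the other 4 genes. Those lay at −0.85 for SERPINB1, −0.27 for CST3, −0.16 for SERPINB6 and 0.06 for CSTB.

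In the machinery that marks and sorts lysosomal enzymes, 5 of 12 genes rose and 4 fell in the libraries numbered 2, against 23.0% and 28.7% of all genes, with a median of 0.08. SORT1, a sorting receptor, was higher by 0.38, while GNPTAB, which builds the mannose 6-phosphate tag, was at −0.38 and GGA2, a sorting adaptor, at −0.48. Of 32 other lysosomal hydrolases 10 rose and 7 fell, with a median of 0.05, led by ARSA at 0.65, HEXA at 0.64 and GALNS at −0.52. Of 27 lysosomal membrane genes 7 rose and 6 fell, with a median of −0.02, and the widest differences were those of LAPTM4B at −0.87, SLC17A5 at −0.65 and ATP6V1C1 at −0.48. The shares of hydrolases and membrane genes called lay near those of all genes in each direction.

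TFEB, a transcription factor of lysosomal genes, fell by 1.01 on the log2 scale from 150 and 115 counts in replicates 1 to 54 and 76 counts in replicates 2. ZKSCAN3, described as a repressor of the same genes, fell by 0.48, and the other 2 tested regulators, TFE3 and MITF, were not called. Thus 2 of 4 tested regulators were lower and 0 higher, where 28.7% of all genes were lower and 23.0% higher.

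The class II antigen route, which cathepsins serve, showed 8 of 12 tested genes higher and 0 lower in the libraries numbered 2, where 23.0% of all genes were higher and 28.7% lower, with a median of 0.88 against −0.01 over all genes. CD74, the invariant chain that CTSS and CTSL cut, had 26.9 and 25.6 CPM in replicates 1 of control and YTHDF1 and 108 and 101 CPM in replicates 2, a log2 difference of 1.99 ± 0.05 (SE; adjusted p = 2.03e-09 by edgeR). HLA-DQB1 and HLA-DPB1 were higher by 1.69 and 1.37, from 20 to 168 counts, and reads of such close paralogs could have been split between loci. CTSS moved in the direction of CD74 and CTSL in the opposite one.

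Between the vectors, 0 genes of these lists were called by edgeR. The lowest unadjusted p of each list was 0.147 for TFE3 at −0.17, 0.215 for HLA-DOB at −0.91, 0.275 for DNASE2 at 0.17, 0.508 for LAPTM4A at 0.06, 0.55 for CSTB at 0.05 and 0.594 for M6PR at 0.05, all by edgeR's quasi-likelihood test without a block. With the replicate number as a block, 0 genes of these lists were called. In that fit the unadjusted p by edgeR was 0.013 for TFE3, with an interval from −0.30 to −0.05. It was 0.0309 for DNASE2, with an interval from 0.02 to 0.31, and 1 class II gene was also under 0.05. The share of all genes under 0.05 in that fit is not given here.

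**Figure D4:**
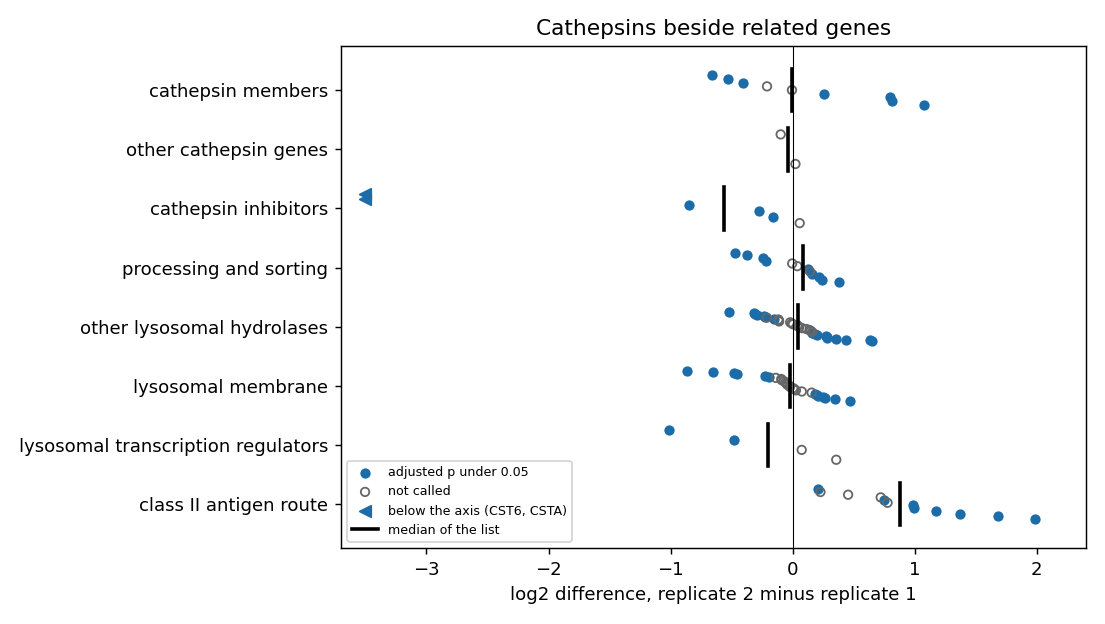
Log2 differences, replicate 2 minus replicate 1, of the tested genes of each list, with filled points for an adjusted p under 0.05, open points for genes not called, arrowheads for CST6 and CSTA below the axis range and bars for the median of each list. Cathepsins spread on both sides of 0, inhibitors lie mostly below it with a median of −0.56 and class II genes above it with a median of 0.88. The inhibitor median includes CST6 and CSTA, which passed the filter only through the libraries numbered 1.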

How the data were processed

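RNA was extracted with a column kit and stranded poly(A) libraries were made. The authors deposited counts, whole numbers of reads per gene without normalization, for 46427 genes with their symbols and NCBI Gene IDs. The submitters' processing notes name Trimmomatic, HISAT2 and GRCh38. The counting tool, annotation and strand setting are not given in the sources used here.

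The analysis used R 4.3.3 and edgeR 4.0.16. Genes were kept by filterByExpr, which left 17781 genes and 9 of the 10 members, libraries were scaled by TMM, and CPM were computed from the scaled sizes. Vectors were compared by the quasi-likelihood test without a block, and replicate numbers with the vector as a term. Adjusted p values are Benjamini-Hochberg values over all genes tested. DESeq2 1.42.0, other scalings and filters, the replicate number as a block and each library left out in turn were the alternatives. Members, gene lists and tests were chosen with earlier results of these data known. Named were all members, tested relatives, up to 3 called genes of each list with the largest difference and, between vectors, the gene of each list with the lowest p. CST3, SERPINB6, MITF and the cell type markers were named after their values were seen.

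The fits were tested on simulated counts with 200 changed genes. With the real difference between replicate numbers kept, the vector fit without a block recovered 0 of 200 genes changed 1.5-fold. It recovered 39 of 200 changed 4-fold. With the replicate number as a block, 165 and 200 were recovered. For the replicate numbers, simulated without their real difference, 163 and 200 were recovered. Transcripts came from GENCODE v29 and upstream sequences from RefSeq. Depth was 57398137 to 60864942 counts, and floors of 3 counts and counting intervals hold for counting error alone, as the libraries carry no molecular identifiers and reads may be copies of the same molecule. Figures were drawn with matplotlib 3.10.9.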

Additional observations from a re-analysis of the deposited data

Results flagged for a closer look

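For 6 cathepsin genes the log2 difference between YTHDF1 and control had opposite signs within the replicate numbers. It was 0.083 in replicate 1 and −0.052 in replicate 2 for CTSA, 0.103 and −0.035 for CTSC, −0.037 and 0.088 for CTSD, 0.119 and −0.043 for CTSL, −0.527 and 0.031 for CTSS, and 0.150 and −0.046 for CTSZ. Each value rests on 1 library per vector, so the difference between the replicate numbers was not tested. The median size over all genes was 0.10 within replicate 1 and 0.08 within replicate 2. CTSS within replicate 1 was the only value of a tested member beyond 0.15 in size. Of the tested cathepsin genes outside the members, CTSK lay at −0.472 in replicate 1 and −0.463 in replicate 2, and CTSV at 0.116 and 0.153.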

How the results depend on the processing

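No cathepsin gene was called between the vectors, and 7 were called between the replicate numbers, under every alternative run for each comparison. Over all genes, calls between the vectors went from 0 to 3 with DESeq2's Wald test. Genes past the fold and unadjusted p threshold went from 18 to 82 without a filter on low counts and to between 47 and 60 when each library was left out, with 60 without control replicate 1, 59 without control replicate 2, 59 without YTHDF1 replicate 1 and 47 without YTHDF1 replicate 2, where the lone library was assumed to vary like the other group. The labels give both vectors the replicate numbers 1 and 2 without saying what they mark, and same-numbered libraries deviated together with a correlation of 0.875. With the replicate number as a block, 10 genes were called between the vectors and 192 passed the threshold, with 0 cathepsin genes among either. The causes were not tested.

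The vector differences of single members changed sign without being called in 18 of 90 recomputed values, all with a library left out. For the replicate numbers this held for 3 of 90, all of CTSA. Depth limits CTSS, with 127 to 336 counts, and CTSF, with 0.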
